A study of Arabidopsis thaliana with 18 samples.

Results

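The response of Arabidopsis thaliana plants of the triple mutant tga2-5-6 to phytoprostane A1 (PPA1) was measured after 4 h. It was measured by comparing 3 arrays of tga2-5-6 treated with 75 µM PPA1 with 3 arrays of tga2-5-6 treated with 0.5% methanol in water (control). These 6 arrays are part of 18 single-colour arrays. The other arrays held tga2-5-6 treated with 75 µM oxo-phytodienoic acid (OPDA), and Col-0, the wild-type accession, under the same PPA1, OPDA and control treatments, with 3 arrays per group. All tga2-5-6 groups, the control included, carry the mutations in TGA2, TGA5 and TGA6. The labels call the replicates independent and the samples plant material, without naming an organ, an age or a growth condition. The series was made to identify genes that TGA factors regulate in the response to the 2 lipids, and the comparison here shows what PPA1 changes in plants that lack TGA2, TGA5 and TGA6. It was made over 21869 probe sets, those with an intensity of at least 16 on at least 3 of the 18 arrays.

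Phytoprostanes form when α-linolenic acid in plant membranes is oxidised without enzymes, and PPA1 carries a cyclopentenone ring, as OPDA does. OPDA is made by enzymes from the same fatty acid and is the precursor of jasmonic acid. The ring reacts with thiol groups, and cyclopentenones are known to induce detoxification enzymes and chaperones. TGA2, TGA5 and TGA6 are basic leucine zipper transcription factors known for their part in salicylic acid responses, and for binding promoters of detoxification genes.

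Levels are intensities on a linear scale. A log2 difference is PPA1 minus control, given ± its standard error, from 1 limma model of all 18 arrays. A probe set was called raised or lowered at a Benjamini-Hochberg adjusted p under 0.05 over all probe sets and a change of at least 2-fold, and "rose" and "fell" are used of called genes only. Where the geometric mean of a group lay below 16, levels and p-values are given without a difference. Of the probe sets kept, 12848 were annotated to 1 gene, and only these are named. Many of them carry a locus number in place of a gene name, and the families of such loci are given as general background knowledge.

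The median intensity was 168 to 175 on the PPA1 arrays of tga2-5-6 and 183 to 185 on its control arrays. The 3'/5' ratio of the GAPDH control probes, a measure of RNA and labelling quality, was 0.953 ± 0.072 on the PPA1 arrays and 1.55 ± 0.47 on the control arrays (SD, n = 3 each). The same ratio for actin was 26.7 to 33.3 on the PPA1 arrays and 33.8 to 66.6 on the control arrays, without overlap. For ubiquitin it was 2.39 to 2.69 on the PPA1 arrays and 2.32 to 3.22 on the control arrays. Control replicate 1 had the highest actin ratio of the 18 arrays. The part of these differences in the results was not tested. Over all probe sets the median log2 difference was -0.13, so that the array as a whole lay slightly lower under PPA1, and 38.5% of the probe sets had a positive difference. All 6 measured photosynthesis genes were at 16 or more on every tga2-5-6 array, with summed intensities of 60011 to 62705 under PPA1 and 64451 to 74804 in control. The 2 root markers measured, EXPA7 and EXPA18, summed to 140 to 268 under PPA1 and 593 to 955 in control. The 3 measured mitotic genes summed to 535 to 717 under PPA1 and 959 to 1110 in control. Neither of the 2 pollen markers reached 16 on all 6 arrays. In such whole samples, fewer cells of a type and less RNA per cell cannot be told apart. TGA2, TGA5 and TGA6 had no probe set annotated to them alone, so the genotype was not checked through their levels.

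PPA1 changed 592 probe sets in tga2-5-6, of which 312 were raised (1.43% of those tested) and 280 lowered (1.28%). In Col-0 it raised 358 (1.64%) and lowered 188 (0.86%). Among probe sets with 1 gene, 144 were raised (1.12%) and 178 lowered (1.39%) in tga2-5-6, against 169 (1.32%) and 96 (0.747%) in Col-0. At an unadjusted p under 0.05, 4329 probe sets (19.8%) differed in tga2-5-6 and 3391 (15.5%) in Col-0. All 3 PPA1 arrays lay above all 3 control arrays of tga2-5-6 for 8.48% of the probe sets, and below them for 16.2%. Changes of at least 4-fold numbered 118 raised and 106 lowered probe sets in tga2-5-6, against 142 and 66 in Col-0. The split in tga2-5-6 depended on how arrays were scaled. With each array centred on its median it was 390 raised and 212 lowered, and with quantile normalization 360 and 176. Fitted on the 6 arrays alone, the comparison kept 94 calls. Without PPA1 replicate 1 it gave 361 calls, and without control replicate 1 it gave 369. Where leaving out 1 array ended the call of a gene named below, this is stated beside it.

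Most of what PPA1 raised in the mutant pointed the same way in Col-0. Of the 312 probe sets raised in tga2-5-6, 173 (55.4%) were also raised in Col-0, and 301 (96.5%) had a positive difference there, against 44.8% of all probe sets. Of the 358 raised in Col-0, these 173 are 48.3%. The median log2 difference of the 312 was 1.65 in tga2-5-6, in which they were chosen, and 1.34 in Col-0. Of 280 lowered in tga2-5-6, 75 (26.8%) were lowered in Col-0, which is 39.9% of the 188 lowered there. Of the 280, 243 (86.8%) had a negative difference in Col-0, where 44.8% of all probe sets had a positive one. The median of the 280 was -1.66 in tga2-5-6 and -0.89 in Col-0. The comparisons in the 2 genotypes share no array, but they share the model's estimate of spread.

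**Figure D1:**
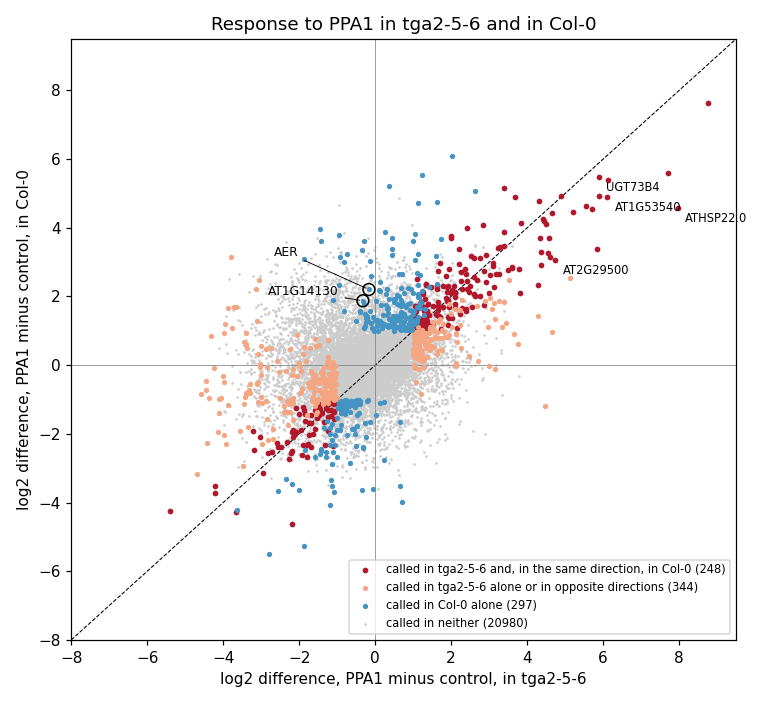
Each point is a probe set, with its log2 difference under PPA1 in tga2-5-6 on the horizontal axis and in Col-0 on the vertical axis, and the dashed line marks equal differences. The 248 probe sets called in the same direction in both genotypes, which have the same sign in both by definition, scatter about that line. AER and AT1G14130 lie near 0 in tga2-5-6 and near 2 in Col-0.

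Chaperone genes were among those that rose most in the mutant. Small heat shock proteins bind unfolding proteins and hold them in a state from which other chaperones can refold them. Of 8 measured small heat shock protein genes, 7 were raised in tga2-5-6 (87.5%, against 1.12% of all probe sets with 1 gene), and the median log2 difference of the 8 was 4.64, against -0.13 over all probe sets. Of the 8, 7 were listed by locus number. The lists and some loci were chosen with earlier results of these data known, so this share and those of the lists below are descriptions. AT1G53540, a member of this list, had intensities of 11406, 9205 and 13727 under PPA1 in tga2-5-6, against 159, 120.4 and 234 in its control. The lowest PPA1 array lay far above the highest control array. It rose by a log2 difference of 6.10 ± 0.44 (adjusted p = 1.02e-05, limma). AT2G29500, another member and the brightest named gene raised, stood at 15472, 13626 and 17568 under PPA1 against 568, 595 and 585 in control, a log2 difference of 4.73 ± 0.26 (adjusted p = 6.4e-07, limma).

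ATHSP22.0, a member located in the endoplasmic reticulum, read 4446, 4416 and 6918 under PPA1 and 8.49, 58.5 and 17.65 in control. Its control arrays lay on both sides of 16, and it rose by 7.96 ± 0.85 (adjusted p = 1.84e-04, limma). AT1G52560 had 4051, 4313 and 8895 under PPA1, against 10.96, 38.8 and 4.54 in control, where 2 of 3 arrays lay below 16 (adjusted p = 4.65e-04, limma). AT1G54050 had 7076, 3969 and 7801 under PPA1 and 274, 243 and 253 in control, a log2 difference of 4.56 ± 0.42. AT5G37670 had 1905, 1236 and 3319 under PPA1 and 105, 171 and 157 in control, a log2 difference of 3.81 ± 0.53. For both, the groups were far from overlapping. AT5G51440, named here after its values were seen, stood at 4549, 3386 and 4202 under PPA1 and at 799, 985 and 1038 in control, and rose by 2.103 ± 0.28. The remaining member, AT4G21870, was not called, with 1324, 1574 and 1928 under PPA1 and 2262, 1676 and 2111 in control.

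Co-chaperones, which assist the large ATP-driven chaperones, were raised in part. Of 5 measured, 3 were raised, where 1.12% of all probe sets with 1 gene were, and the median log2 difference of the 5 was 3.19. The list held 26 loci, so most of it was not measured. Hop3, which links HSP70 to HSP90, had 3667, 2369 and 3491 under PPA1 and 182, 249 and 259 in control, a log2 difference of 3.78 ± 0.39 (adjusted p = 1.33e-04, limma). Fes1A, an HSP70-binding protein of heat tolerance, had 7493, 3736 and 8229.8 under PPA1 and 580.4, 455 and 501 in control, a log2 difference of 3.59 ± 0.35. AT5G48570, which encodes the peptidyl-prolyl isomerase ROF2, had 12747, 8501 and 12654 under PPA1 and 1369.8, 807 and 1626 in control, a log2 difference of 3.19 ± 0.34. All 3 had every PPA1 array above every control array.

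None of the 5 measured HSP70, HSP90, HSP100 and chaperonin genes on the list was called, and their median was -0.07. The list held 33 loci, so most of it was not measured. None of the 5 was listed by locus number, whereas 7 of the 8 small heat shock protein genes were. The 2 lists are thus not alike in how they were made. Cpn60beta4, a plastid chaperonin subunit, moved most among the 5, with 379.5, 469.6 and 441 under PPA1 and 587, 522 and 602 in control (adjusted p = 0.268, limma). Outside that list, the HSP70 gene AT3G09440 was among the 5 brightest genes raised, with 10631, 6089.8 and 9234 under PPA1 and 3869.7, 2802 and 4201 in control. It rose by 1.24 ± 0.30 (adjusted p = 0.0326, limma). That call was lost in 5 of the 6 fits without 1 array, with an adjusted p of up to 0.130 without PPA1 replicate 1. Outside the lists, the J-domain gene AT1G71000 had 410.1, 300.1 and 1052 under PPA1 and 11.8, 18.8 and 36.2 in control, a log2 difference of 4.66 ± 0.86. Another J-domain gene, AT2G20560, and HSA32, which extends acquired heat tolerance, were named after their values were seen. AT2G20560 had 2973, 2235 and 3605 under PPA1 and 351, 378 and 280.0 in control, a log2 difference of 3.11 ± 0.35. HSA32 had 955, 807 and 1274 under PPA1 and 213, 168 and 241 in control, a log2 difference of 2.28 ± 0.38.

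The chaperone response was present in Col-0 too, and all 10 called members of the small heat shock protein and co-chaperone lists were called there. For the 9 other than AT1G52560, whose controls lay near or below 16 in both genotypes, log2 differences ran over 2.103 to 7.96 in tga2-5-6 and 1.77 to 4.89 in Col-0. The estimate was larger in tga2-5-6 for each of the 9, but the difference between genotypes passed for none of the 10, with adjusted p from 0.194 to 0.915 (limma). One PPA1 array was the lowest of its 3 for 9 of the 10 genes in each genotype, replicate 2 in tga2-5-6 and replicate 1 in Col-0. AT2G29500 came closest, with a genotype difference of 1.67 ± 0.36 (95% interval 0.89 to 2.45). It had 15472, 13626 and 17568 under PPA1 in tga2-5-6 and 9726, 13421 and 20551 under PPA1 in Col-0, so that the treated levels overlapped. Its controls were 568, 595 and 585 in tga2-5-6 and 1739, 2054 and 1301 in Col-0.

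**Figure D2:**
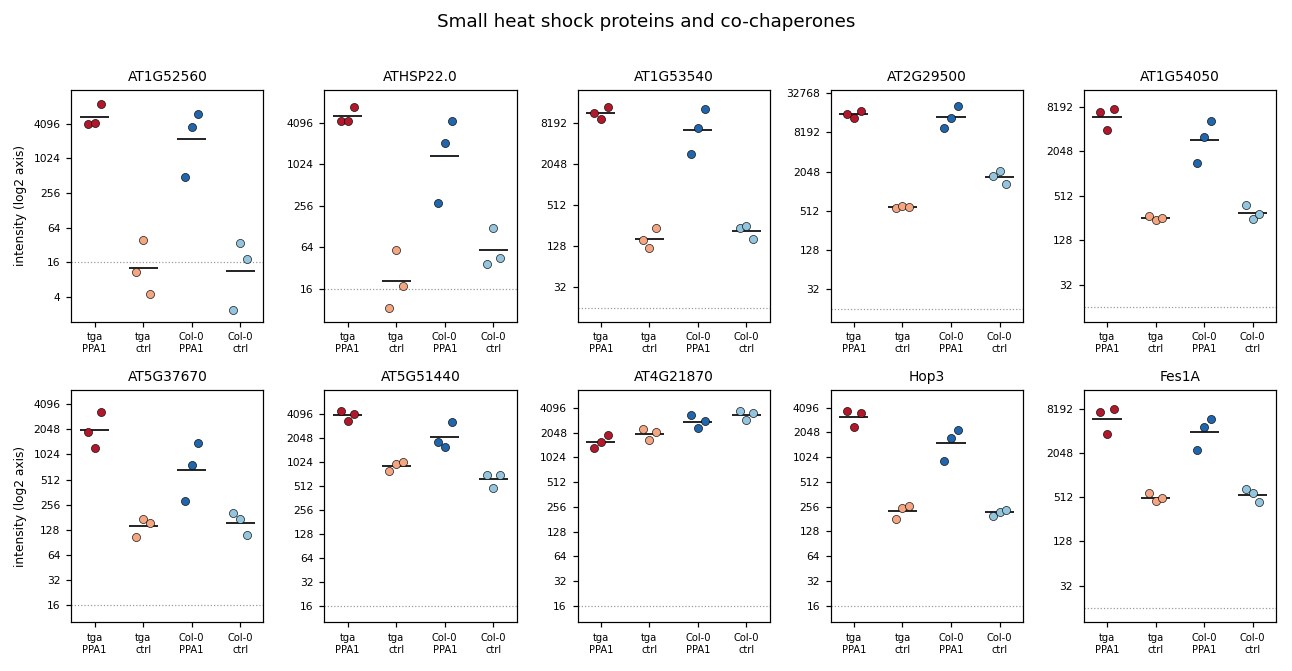
Intensity on a log2 axis of 8 small heat shock protein genes, Hop3 and Fes1A, 1 point per array, with a bar at the geometric mean of 3 arrays; tga is tga2-5-6, ctrl is control, and the dotted line marks 16. In all panels but that of AT4G21870, the PPA1 arrays of tga2-5-6 lie above its control arrays, and the spread among PPA1 arrays is wider in Col-0.

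Detoxification genes were raised in smaller number, and several at lower levels than in Col-0. Glutathione S-transferases join glutathione to reactive compounds, and UDP-glycosyltransferases (UGTs) join sugars to small molecules. The UGT list does not hold every UGT gene, and the counts given are of its members. Of 42 measured UGT genes on it, 3 were raised (7.14%) and 1 was lowered (2.38%) in tga2-5-6, with a median log2 difference of -0.07. Of all probe sets with 1 gene, 1.12% were raised and 1.39% lowered there. In Col-0, 5 UGT genes were raised and 1 lowered. UGT73B4 and UGT73B5, which are neighbours on the chromosome, were raised in both. UGT73B4 had 287, 199.8 and 303 under PPA1 in tga2-5-6, against 1.68, 3.42 and 14.8 in its control, all below 16 (adjusted p = 5.46e-04, limma). In Col-0 it had 871, 1019 and 1341 under PPA1 and 37.7, 43.0 and 8.19 in control. The PPA1 arrays of tga2-5-6 lay below those of Col-0, and the control arrays of the 2 genotypes overlapped. UGT73B5 had 222, 174 and 363 under PPA1 and 51.5, 57.7 and 74.0 in control in tga2-5-6, a log2 difference of 1.998 ± 0.36 (adjusted p = 0.00684, limma). In Col-0 it had 816, 1523 and 2158 under PPA1 and 120.2, 110.5 and 80.2 in control, and its genotype difference was -1.77 ± 0.51 (95% interval -2.86 to -0.67, adjusted p = 0.369, limma).

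UGT87A2 had 1516, 1462 and 871 under PPA1 and 350.4, 762 and 392 in control, a log2 difference of 1.40 ± 0.30 (adjusted p = 0.0197, limma), and its call was lost in 4 of the 6 fits without 1 array (adjusted p of up to 0.0889, without control replicate 1). UGT84A1, a UGT gene that was not on the list, had 160.4, 189 and 108 under PPA1 and 3.28, 6.24 and 3.64 in control, all controls below 16 (adjusted p = 0.0138, limma, and 0.0561 without control replicate 1). UGT71C1 fell, with 151, 129 and 216 under PPA1 and 384, 319.7 and 318 in control, a log2 difference of -1.08 ± 0.25. That call was lost in 4 of the 6 fits without 1 array, with an adjusted p of up to 0.108 without control replicate 1, and with median centring (0.0506).

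Of 13 measured glutathione S-transferases, GSTU22 alone was called in tga2-5-6 (7.69%, against 1.12% of all probe sets with 1 gene raised), and the median was -0.05. GSTU22 had 251, 402 and 285 under PPA1 and 79.3, 77.3 and 72.5 in control, with no overlap, a log2 difference of 2.004 ± 0.30 (adjusted p = 0.0025, limma). In Col-0 it reached 2603, 1447 and 1219 under PPA1, against 164, 135 and 94.8 in control, and the genotype difference was -1.69 ± 0.43 (adjusted p = 0.26, limma).

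Aldo-keto reductases reduce reactive aldehydes and ketones. Of 9 measured, 1 was raised in tga2-5-6 (11.1%, against 1.12% of all probe sets with 1 gene) and 2 in Col-0. AT1G60730 had 345, 271 and 269 under PPA1 and 14.1, 53.0 and 62.9 in control, a log2 difference of 3.02 ± 0.43 (adjusted p = 0.00162, limma). Of 27 measured transporters of the MATE family, which export toxic compounds, 1 was raised in tga2-5-6 and 3 in Col-0. In tga2-5-6 this is 3.57% of their probe sets, against 1.12% of all probe sets with 1 gene. No transporter of the ABC family was measured under its own name. AT1G66760 had 187, 225 and 91.98 under PPA1 and 33.7, 71.1 and 31.1 in control, a log2 difference of 1.90 ± 0.39 (adjusted p = 0.0145, limma, lost in 4 of the 6 fits without 1 array, with up to 0.0650 without control replicate 1). None of the 9 alkenal, quinone and enone reductases and none of the 8 aldehyde dehydrogenases was called. Of 21 cytochrome P450 genes 2 fell (9.52%, against 1.39% of all probe sets with 1 gene) and none rose. CYP71B37 had 84.0, 95.1 and 64.6 under PPA1 and 201, 172 and 171 in control, a log2 difference of -1.17 ± 0.18. CYP718 had 37.1, 8.44 and 9.36 under PPA1, with 2 of 3 arrays below 16, and 276, 158 and 135 in control (adjusted p = 0.00298, limma).

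**Figure D3:**
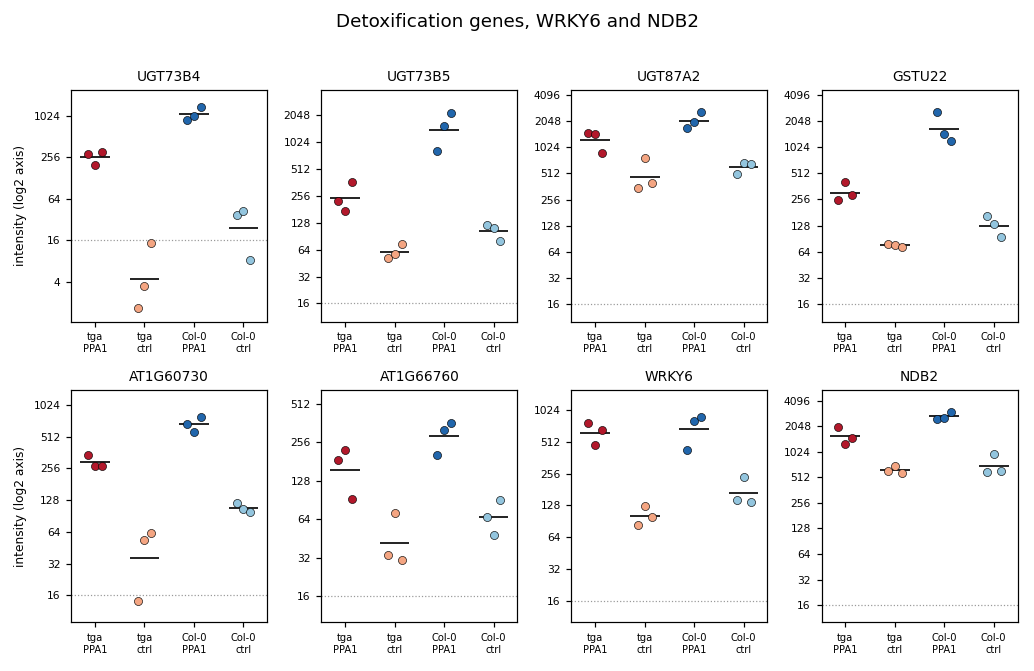
Intensity on a log2 axis of 6 detoxification genes, WRKY6 and the mitochondrial gene NDB2, 1 point per array, with a bar at the geometric mean of 3 arrays; tga is tga2-5-6, ctrl is control, and the dotted line marks 16. For each gene the PPA1 arrays of tga2-5-6 lie above its control arrays, and for UGT73B4, UGT73B5 and GSTU22 the PPA1 arrays of Col-0 lie higher still.

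Regulators and stress genes outside these families that rose included transcription factors, a glutaredoxin and dehydrins. WRKY6, a transcription factor of senescence and defence, was the called member among 7 WRKY genes (14.3%, against 1.12% of all probe sets with 1 gene raised). It had 773, 475 and 658 under PPA1 and 83.0, 126 and 98.9 in control, a log2 difference of 2.62 ± 0.29 (adjusted p = 2.80e-04, limma). GRX480 encodes a glutaredoxin known to interact with TGA factors and to be induced by salicylic acid through them. It was the raised member among 4 salicylic acid response genes (25.0%, against 1.12% of all probe sets with 1 gene). GRX480 had 509.5, 312 and 449 under PPA1 and 24.3, 149 and 88.6 in control, a log2 difference of 2.60 ± 0.69. Its adjusted p was 0.0487 (limma), and the call was lost in 5 of the 6 fits without 1 array (adjusted p of up to 0.171, without control replicate 1) and without the filter on low values (0.0515). In Col-0, GRX480 had 196, 200.5 and 187 under PPA1 and 32.7, 54.9 and 6.42 in control. The PPA1 arrays of Col-0 lay below those of tga2-5-6, but the rise was not smaller in Col-0. Its log2 difference there was 3.11 ± 0.69, and the genotype difference was -0.51 (adjusted p = 0.942, limma).

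NDB2, an external NADH dehydrogenase of mitochondria, was the called member among 9 mitochondrial dysfunction genes (11.1%, against 1.12% of all probe sets with 1 gene raised). It had 1979.6, 1248 and 1497 under PPA1 and 606, 695 and 579 in control, a log2 difference of 1.31 ± 0.20 (adjusted p = 0.00245, limma). ATG8H, an autophagosome protein, was the called member among 9 autophagy genes (11.1%, against the same 1.12%). It had 945, 609 and 787 under PPA1 and 378, 215 and 319.8 in control, a log2 difference of 1.37 ± 0.28 (adjusted p = 0.0152, limma, and 0.0699 without PPA1 replicate 1). Among those 9 genes, 8 had a positive difference, against 38.5% of all probe sets.

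The dehydrins COR47 and LTI30, which protect cells that lose water, were raised as well. COR47 had 4831, 5708 and 6372 under PPA1 and 2791, 2184 and 2334 in control, a log2 difference of 1.21 ± 0.23. LTI30, named after its values were seen, had 1925, 1682 and 1725 under PPA1 and 261, 274 and 251 in control, a log2 difference of 2.76 ± 0.21 (adjusted p = 1.44e-05, limma). TIL, a lipocalin of heat and oxidative stress, was among the 5 brightest genes raised, with 6234, 6732 and 8363 under PPA1 and 2947, 3685 and 3173 in control. Its log2 difference was 1.12 ± 0.27, and its call was lost in 5 of the 6 fits without 1 array (adjusted p of up to 0.114, without control replicate 1).

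The zinc finger factor STZ, also named after its values were seen, had 1893, 1196 and 1244 under PPA1 and 279, 736 and 389 in control, a log2 difference of 1.71 ± 0.44 (adjusted p = 0.0434, limma, lost in 5 of the 6 fits without 1 array, with up to 0.158 without control replicate 1). BZIP60, a factor of the unfolded protein response, passed the p threshold but not the 2-fold one, with 1695, 1326 and 1394 under PPA1 and 689, 741 and 874 in control. None of the 7 jasmonate synthesis and response genes was called. JRG21, an enzyme that inactivates jasmonic acid, had 133, 159 and 4.48 under PPA1 and 2.33, 107 and 4.56 in control, which overlapped, while under OPDA in tga2-5-6 it stood at 4451, 3792 and 4762. Likewise none of 16 basic leucine zipper genes, 4 endoplasmic reticulum stress genes or 3 sulfate assimilation genes was called.

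Some of the strongest rises were of loci on none of the lists. Of the 144 raised probe sets with 1 gene, 122 were of this kind. AT5G10695 had 3455, 2059 and 5265 under PPA1 and 136, 121 and 167 in control, a log2 difference of 4.58 ± 0.41. AT3G10020 had 5844, 3642 and 7141 under PPA1 and 426, 568 and 359 in control, a log2 difference of 3.59 ± 0.45. Neither has a name in the annotation used, and in both the groups were well apart. AT4G01870, chosen after its values were seen, had 2713, 2811 and 2568 under PPA1 and 361, 371 and 126 in control in tga2-5-6, a log2 difference of 3.39 ± 0.42. In Col-0 it had 9024, 13302 and 21553 under PPA1 and 728, 1121 and 993 in control, so that the levels were lower in the mutant in both conditions while the genotype difference of the response was -0.49 ± 0.60. AT1G68620 had 321, 297 and 383 under PPA1 and 21.7, 105 and 7.83 in control, and its adjusted p of 0.0394 (limma) was lost in 5 of the 6 fits without 1 array, with up to 0.130 without control replicate 3.

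AT1G44414 and AT5G07330 were called in tga2-5-6 and not in Col-0, both with controls whose geometric mean was below 16. AT1G44414 had 98.6, 76.1 and 165 under PPA1 and 13.7, 4.19 and 10.6 in control. AT5G07330 had 124, 83.4 and 275 under PPA1 and 2.57, 17.9 and 3.86 in control, with a call lost in 4 of the 6 fits without 1 array (adjusted p of up to 0.0935, without control replicate 1). Their genotype differences did not pass (adjusted p = 0.369 and 0.597, limma).

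The list with the most lowered members was that of the class III peroxidases. These are secreted enzymes that cross-link or loosen wall polymers and make or use hydrogen peroxide. Of 55 measured, 7 were lowered (12.7%, against 1.39% of all probe sets with 1 gene) and 1 was raised in tga2-5-6. The median log2 difference was -0.55, and 4 of the 7 were lowered in Col-0. AT3G49960 had 88.6, 184 and 126 under PPA1 and 1122, 564 and 661 in control, a log2 difference of -2.55 ± 0.45 (adjusted p = 0.00574, limma). AT1G34510 had 106, 96.4 and 70.2 under PPA1 and 732, 405 and 534 in control, a log2 difference of -2.59 ± 0.44 (adjusted p = 0.00473, limma). Every PPA1 array lay below every control array for both, as for 16.2% of all probe sets. AT2G43480 had 23.2, 5.47 and 16.3 under PPA1 and 78.0, 154 and 91.1 in control, and its call was lost in 5 of the 6 fits without 1 array (adjusted p of up to 0.0917, without PPA1 replicate 2).

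AT5G64100 and AT4G30170, the brightest of the 7, fell by less. AT5G64100 had 2398, 1499 and 1832 under PPA1 and 5458, 2840.3 and 3565 in control, a log2 difference of -1.02 ± 0.25. Its call was lost in 4 of the 6 fits without 1 array (adjusted p of up to 0.140, without control replicate 1) and with median centring (0.0605). AT4G30170 had 892, 784 and 432 under PPA1 and 2254, 1714 and 1342 in control, a log2 difference of -1.37 ± 0.31, with a call lost in 3 of the 6 (adjusted p of up to 0.111, without control replicate 1). AT5G66390, which encodes peroxidase 72, went the other way, with 1034, 1097 and 1022 under PPA1 and 510.0, 424 and 477 in control, a log2 difference of 1.16 ± 0.17 (adjusted p = 0.00187, limma).

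Of 35 measured cell-wall genes, 2 were lowered (5.71%, against 1.39% of all probe sets with 1 gene) and none raised. Of the 35, 10 (28.6%) had a difference of at least 2-fold downwards whether called or not, as did 11.8% of all probe sets. The median was -0.53. EXPA18, an expansin of root hairs, had 151, 71.3 and 178 under PPA1 and 677, 410.0 and 537 in control, a log2 difference of -2.09 ± 0.30 (adjusted p = 0.00158, limma). The other root-hair expansin, EXPA7, had 117, 68.6 and 83.6 under PPA1 and 278, 183 and 265 in control and was not called in tga2-5-6 (adjusted p = 0.161, limma), while in Col-0 it was. Its genotype difference did not pass (adjusted p = 0.813, limma). XTH19, a xyloglucan endotransglucosylase, had 151, 153 and 283 under PPA1 and 822, 435 and 977 in control, a log2 difference of -1.91 ± 0.30. Among 8 tubulin and actin genes none was called, and 2 had a positive difference, against 38.5% of all probe sets.

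The multicopper-oxidase-like genes sks15 and sks16 were among the 12 lowest. The gene sks15 had 9.67, 29.7 and 62.5 under PPA1 and 592, 425 and 464 in control, a log2 difference of -4.22 ± 0.74 (adjusted p = 0.00574, limma). The gene sks16 had 37.8, 34.0 and 59.5 under PPA1 and 516, 250.2 and 327 in control, a log2 difference of -3.04 ± 0.34 (adjusted p = 2.67e-04, limma). Both were lowered in Col-0 as well, where sks16 had 97.1, 54.7 and 45.9 under PPA1 and 222, 309 and 275 in control.

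The brightest lowered gene was AT4G15390, of the acyltransferase family, with 1099, 1597 and 1282 under PPA1 and 6865, 6183 and 5113 in control, a log2 difference of -2.20 ± 0.33 (adjusted p = 0.00228, limma). It fell in Col-0 as well, with 789, 545 and 1826 under PPA1 and 5194, 5186 and 5369.8 in control. AT3G20370, a TRAF-like gene, had 1610.4, 1179 and 1526 under PPA1 and 3645, 3881 and 4614 in control, a log2 difference of -1.50 ± 0.17. AT1G52060, whose neighbour AT1G52050 was also lowered, had 724, 467 and 563 under PPA1 and 2255, 927 and 2157 in control, with a call lost in 5 of the 6 fits without 1 array (adjusted p of up to 0.156, without control replicate 1) and with median centring (0.0541).

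Among the lowest were further loci without names. AT5G10130 had 184, 130.2 and 58.8 under PPA1 and 1253, 770.0 and 1099 in control, a log2 difference of -3.18 ± 0.54. AT1G19900 had 10.6, 25.6 and 51.3 under PPA1 and 297, 146 and 157 in control, a log2 difference of -2.98 ± 0.54. AT3G45700 read 6.6, 7.76 and 6.49 under PPA1, all below 16, and 154, 53.3 and 206 in control. AT3G19430 and AT1G50060 lay at 36.3 to 186 under PPA1 and 259 to 1450 in control, and both calls were lost without control replicate 1 (adjusted p = 0.0641 and 0.0544). Single members of hormone and calcium lists also fell. IAA29, an auxin response repressor, had 2.24, 1.85 and 2.38 under PPA1 and 20.5, 65.7 and 18.6 in control, near the filter, and lost its call without any 1 of the 6 arrays (adjusted p of up to 0.119, without control replicate 2). CML43, a calcium sensor, had 154, 96.1 and 66.7 under PPA1 and 271, 193 and 262 in control, a log2 difference of -1.27 ± 0.25, with a call lost in 3 of the 6 fits (adjusted p of up to 0.0601, without control replicate 1).

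**Figure D4:**
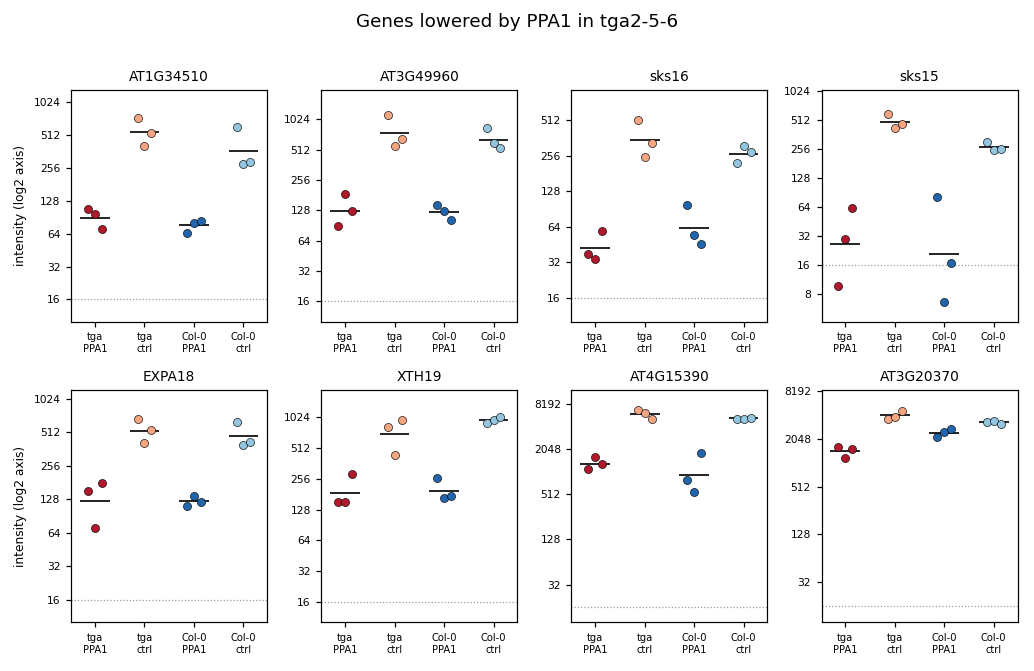
Intensity on a log2 axis of 8 genes that PPA1 lowered in tga2-5-6, 1 point per array, with a bar at the geometric mean of 3 arrays; tga is tga2-5-6, ctrl is control, and the dotted line marks 16. All PPA1 arrays of tga2-5-6 lie below its control arrays in each panel, and in Col-0 the PPA1 arrays of AT3G20370 lie closer to the control arrays.

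The test of the difference between genotypes, taken as the mutant's log2 difference minus the wild type's, passed for 2 probe sets (0.00915%, or 0.0156% of those with 1 gene). Both were lower in the mutant, and 0 probe sets passed in the other direction. At an unadjusted p under 0.05 there were 1617 (7.39%). The 2 were AER and AT1G14130. AER encodes an alkenal reductase, which removes the reactive double bond of lipid-derived aldehydes and ketones. It had 398, 448 and 369 under PPA1 and 477, 404 and 483 in control in tga2-5-6, which overlapped. In Col-0 it had 4207, 5104 and 4999 under PPA1 and 740.4, 1349 and 1101 in control. The log2 difference was -0.17 ± 0.22 in tga2-5-6 and 2.20 ± 0.22 in Col-0, and the genotype difference was -2.37 ± 0.31 (95% interval -3.03 to -1.71, adjusted p = 0.0363, limma).

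AT1G14130, of the 2-oxoglutarate-dependent dioxygenases, a family that includes auxin-oxidising enzymes, had 185, 244 and 188 under PPA1 and 187, 343 and 258 in control in tga2-5-6. In Col-0 it had 835, 963 and 1044 under PPA1 and 209, 313 and 262 in control. The log2 difference was -0.32 ± 0.21 in tga2-5-6 and 1.87 ± 0.21 in Col-0, with a genotype difference of -2.20 ± 0.29 (95% interval -2.82 to -1.57, adjusted p = 0.0363, limma). The call of AER was lost in 8 of the 12 fits without 1 array, with an adjusted p of up to 0.167 without Col-0 PPA1 replicate 2. That of AT1G14130 was also lost in 8 of the 12, with up to 0.167 without the same array. With quantile normalization the adjusted p was 0.0573 for AER and 0.0608 for AT1G14130, and with the 12 arrays of both comparisons alone it was 0.0791 and 0.211.

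Of the 358 probe sets raised in Col-0, 207 were at least 2-fold higher under PPA1 in tga2-5-6 as well, whether called or not, 115 were higher by less and 36 were not higher. Thus 322 (89.9%) had a positive difference in tga2-5-6, against 38.5% of all probe sets. The share of all probe sets at least 2-fold higher there was not counted, so the 207 have no such background. The 6 genes that follow, with large rises in Col-0, were chosen after their values were seen, so that their differences are a description. GSTU25, a glutathione S-transferase, had 251, 131 and 91.4 under PPA1 and 71.4, 71.5 and 20.0 in control in tga2-5-6, against 7493, 6106 and 6381 under PPA1 and 305, 282 and 178 in control in Col-0. It missed the threshold in tga2-5-6 (adjusted p = 0.0549, limma) and passed it under 8 of the 14 alternative settings. AT5G16980, next to AER and of the same family, had 28.5, 29.5 and 24.7 and 54.2, 68.4 and 40.2 in tga2-5-6 under PPA1 and control, against 728, 986 and 1156 and 141, 274 and 171 in Col-0. All 6 tga2-5-6 arrays thus lay below all Col-0 arrays.

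AT4G36610, of a hydrolase family, had 79.3, 201 and 68.9 under PPA1 and 119.8, 212 and 207 in control in tga2-5-6, against 1272, 1807 and 1945 under PPA1 and 166, 188 and 173 in control in Col-0. AT1G60750, an aldo-keto reductase gene near AT1G60730, had 18.5, 19.5 and 90.4 and 7.54, 7.39 and 8.54 under PPA1 and control in tga2-5-6, against 632, 621 and 628 and 21.1, 1.96 and 18.4 in Col-0. OCT5, an organic cation transporter, had 53.5, 63.2 and 88.6 and 82.6, 40.1 and 87.2 under PPA1 and control in tga2-5-6, against 1036, 1145 and 1556 and 326, 383 and 301 in Col-0. AT5G51500 was called in opposite directions. It had 5.14, 8.05 and 3.18 under PPA1 and 74.3, 80.5 and 58.2 in control in tga2-5-6, against 256, 93.8 and 116 under PPA1 and 2.8, 30.01 and 46.2 in control in Col-0. Its call in tga2-5-6 was lost in 3 of the 6 fits without 1 array (adjusted p of up to 0.0573, without PPA1 replicate 3). None of these genotype differences passed in the main fit, with adjusted p from 0.114 for AT4G36610 to 0.531 for AT1G60750 (limma). Each of the 6 passed in at least 1 of 20 alternative runs. The result stayed the same in 16 of the 20 for AT4G36610 and AT5G51500, and in 19 for AT1G60750. With trend and robust moderation the adjusted p was 0.00376 for AT4G36610 and 0.00497 for AT5G51500 and AT5G16980 (limma).

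**Figure D5:**
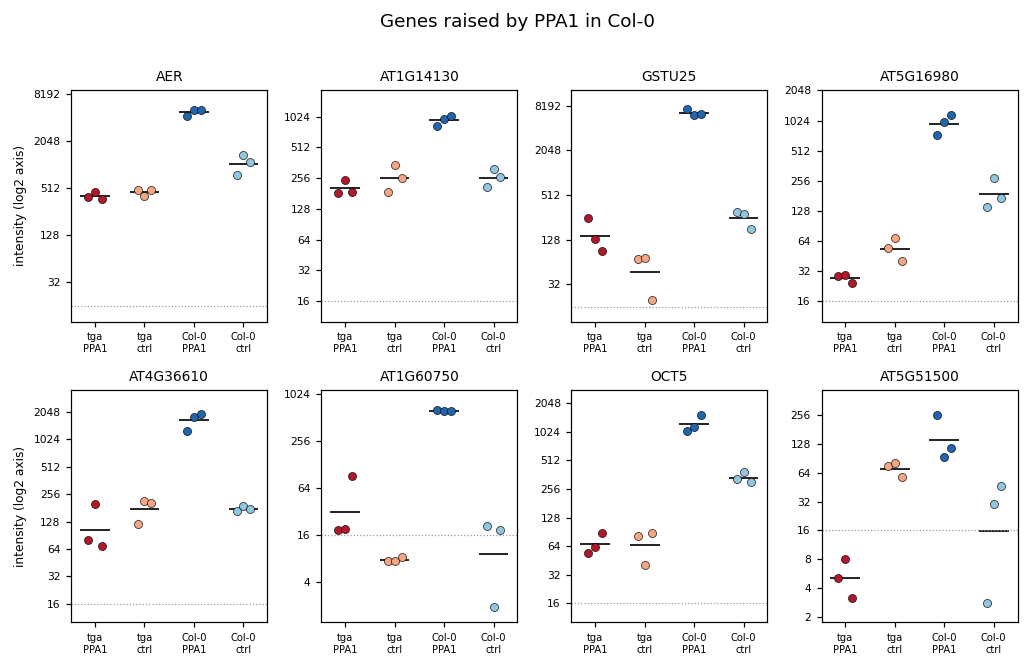
Intensity on a log2 axis of AER, AT1G14130 and 6 genes chosen after their values were seen, 1 point per array, with a bar at the geometric mean of 3 arrays; tga is tga2-5-6, ctrl is control, and the dotted line marks 16. The PPA1 arrays of Col-0 are the highest group in every panel, while those of tga2-5-6 overlap or lie below its control for AER, AT1G14130, AT5G16980, AT4G36610, OCT5 and AT5G51500.

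OPDA was applied to tga2-5-6 at the same dose and time, and its comparison uses the same 3 control arrays, so that values are given side by side without a test. AT1G53540 had 11406, 9205 and 13727 under PPA1 and 4532, 3751 and 4880.4 under OPDA. UGT73B5 had 222, 174 and 363 under PPA1 and 105, 57.4 and 77.4 under OPDA, and GSTU22 had 251, 402 and 285 under PPA1 and 96.9, 66.9 and 71.6 under OPDA. For these the OPDA arrays lay below the PPA1 arrays. GRX480 had 509.5, 312 and 449 under PPA1 and 822, 626 and 1049 under OPDA, and AT1G14130 had 185, 244 and 188 under PPA1 and 960.2, 861 and 912 under OPDA, where the OPDA arrays were the higher ones. AT3G20370 had 1610.4, 1179 and 1526 under PPA1 and 4246, 4687 and 4790.1 under OPDA, and the OPDA levels overlapped those of its control.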

How the data were processed

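RNA from 18 plant samples was hybridised to 1 single-colour Affymetrix array each, with total RNA extracted by a plant RNA kit and labelled by a one-cycle kit, per the labels' protocols. The authors deposited 1 intensity per array for each of 22810 probe sets, on a linear scale. The submitters' processing notes name GCRMA, but its output is on a log2 scale, and the deposited intensities have a common trimmed mean of 500.1, so the step that made them is not given in the sources used here.

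Values under 1 were set to 1 and log2 was taken. The 64 control probe sets were left out, and a probe set was kept if 3 or more arrays showed at least 16. No further normalization was applied. limma 3.58.1 in R 4.3.3 was fitted to all 18 arrays as group means (12 residual and 1.5 prior degrees of freedom, two-sided tests). Nothing in the labels beyond the word independent says that replicates came from separate plants, so p-values measure the spread between these samples. The number of arrays limits the precision. On simulated data for this comparison with 200 of 21869 probe sets changed, 26.9% of 2-fold and 64.2% of 4-fold changes were called. In the data 592 were called, so the adjusted p was harder to pass in the simulation. A true 2-fold change is also called only where its estimate reaches 2-fold. These rates are thus not those of the data, nor set by the number of arrays alone.

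Genes were named from TAIR10.1 through the array's annotation, with 1 gene for 13513 probe sets, several for 503 and none for 8730. Lists held 2115 loci, of which 371 were measured. The comparison, the lists and some loci were chosen with earlier results of these data known. Genes named are the 15 highest and 12 lowest called with groups apart and a mean of at least 100 in the higher group, the 5 brightest in each direction, up to 3 highest and 3 lowest called members per list or its largest change, and genes passing the genotype difference. The text names some of the 74 chosen so and 14 others chosen after their values were seen. Alternatives changed the scale, filter, normalization, moderation, samples, block and threshold.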

Additional observations from a re-analysis of the deposited data

Results flagged for a closer look

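AER and AT1G14130 drew attention because their response to PPA1 differed between the genotypes by a test of the difference. The genotype difference, tga2-5-6 minus Col-0, was -2.37 ± 0.31 on the log2 scale for AER and -2.20 ± 0.29 for AT1G14130. All 3 Col-0 PPA1 arrays lay above all 3 Col-0 control arrays for both genes, while in tga2-5-6 the PPA1 and control arrays overlapped. No cause was tested.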

How the results depend on the processing

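The comparison in tga2-5-6 gave 592 calls. An adjusted p alone gave 985, the 6 arrays alone 94, and fits without 1 array 361 to 630. In Col-0, 546 calls became 221 with the arrays of the comparison alone and 351 to 622 without 1 array (351 without PPA1 replicate 3). The genotype difference gave 2 calls, 18 on the log2 of value plus 16, 4 with a filter of 64, 0 with quantile normalization, 31 with trend and robust moderation, 0 with the 12 arrays alone, 1 with a replicate block and 0 to 7 without 1 array. Probe sets raised in both genotypes numbered 173, with 115 from the arrays of the comparison alone and 122 to 194 without 1 array. Those lowered in both numbered 75, with 47 and 38 to 82 (38 without Col-0 control replicate 1 and 48 without Col-0 PPA1 replicate 3).

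Of 62 named genes called in tga2-5-6, 19 kept the call in every alternative run, among them 7 small heat shock protein genes, Hop3, Fes1A and AT5G48570, and none reversed direction. The fit on the 6 arrays alone kept 21. The 2 settings with the next fewest kept calls left out an array, with 41 without control replicate 1 and 46 without control replicate 3. GRX480, IAA29 and 1 other named gene lost their call with the replicate block, as did the genotype difference of AER (adjusted p = 0.0861). Deviations of same-numbered arrays from their group means were weakly correlated, at -0.0539 to 0.0673. Differently numbered arrays were not compared, so this cannot settle whether same-numbered samples were handled together. The block gave 562 calls in tga2-5-6 and 541 in Col-0. In fits that left out 1 array, a group of 2 arrays was assumed to vary like the others. Levels below 16 have no order, and a gene with no annotated probe set was not assessed.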

Other observations

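Neighbouring genes were called together in 3 raised and 5 lowered pairs. The raised pairs are AT1G33590 with AT1G33600, AT2G15480 with AT2G15490 (UGT73B5 and UGT73B4), and AT2G41160 with AT2G41170. The lowered pairs are AT1G31950 with AT1G31960, AT1G52050 with AT1G52060, AT2G17070 with AT2G17080, AT5G25390 with AT5G25400, and AT5G60520 with AT5G60530. Of the raised probe sets 168 had no single gene in the annotation, and of the lowered 102.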
